A study of Mus musculus with 16 samples.

Results

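The fibrillar collagens examined here were 7 genes, Col1a1, Col1a2, Col3a1, Col5a1, Col5a2, Col5a3 and Col11a1, of 22372 protein-coding genes measured by RNA-seq in mouse heart ventricle. They were given as a list of gene symbols, with no cutoff on a measured value, and encode chains of collagen types I, III, V and XI. All 7 were found in the data. Col11a2, which encodes another type XI chain, is not on the list and is described with the remaining fibrillar collagens. One piece of ventricle was sequenced from each of 16 mice of the C57BL/6J strain, which were 10 to 12 weeks old when the experiment began, with 4 mice in each of 4 groups. TAC, transverse aortic constriction, narrows the aorta with a suture between the brachiocephalic and left common carotid arteries, so that the left ventricle pumps against a raised pressure, whereas sham mice had the same operation with no constriction. THZ1, a covalent inhibitor of the transcription kinases CDK7, CDK12 and CDK13, was injected into the abdomen from day 1 to day 60 after surgery at 10 mg/kg, 2 doses a day per the labels, and the other mice received vehicle. The groups were thus sham mice on vehicle (Sham-Veh) or inhibitor (Sham-THZ1) and constricted mice on vehicle (TAC-Veh) or inhibitor (TAC-THZ1), and the comparisons addressed which transcript changes of pressure overload were altered by the inhibitor. The labels give no engineered allele for any group. The inhibitor was given to the whole animal and was not directed at a cell type, and the tissue pieces held all cell types of the ventricle.

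Fibrillar collagens are secreted as trimers of α chains, trimmed outside the cell and packed side by side into the fibrils that give tissue its tensile strength. Type I, built from the Col1a1 and Col1a2 chains, and type III, a homotrimer of the Col3a1 chain, make up the bulk of the fibrils in the heart. Type V, built from the Col5a1 and Col5a2 chains and in some trimers the Col5a3 chain, is buried in type I fibrils, where it helps to start them and to limit their width. Type XI, which contains the Col11a1 chain, plays the matching part in cartilage. In the ventricle these genes are expressed mainly by fibroblasts, and fibrosis is a known feature of pressure overload.

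Values are normalized counts, that is, reads per gene divided by a library size factor, over library totals of 21.4 to 35.8 M reads in genes. Mitochondrial genes took 33.2% to 44.7% of the reads. In a bulk tissue sample, fewer cells of a type and less RNA per cell cannot be told apart. The 7 genes lie on 6 chromosomes of the mouse build NCBIM37 (mm9). Col3a1 (chr1:45368383-45406551, plus strand) and Col5a2 (chr1:45431166-45560127, minus strand) are nearest neighbours on chromosome 1, with 24.6 kb between them, and are read towards each other. Col1a1 lies at chr11:94797538-94814356 on the plus strand, where it overlaps the antisense gene Gm17329, and reads were counted by strand. Col1a2 lies at chr6:4454814-4491543 and Col5a1 at chr2:27741945-27895034, both on the plus strand. Col5a3 lies at chr9:20574494-20619511 on the minus strand, and Col11a1 at chr3:113733458-113923636 on the plus strand.

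The 250 bases before the RefSeq start of transcription are shown for 4 members. Col1a2 and Col3a1 are shown as members that rose more with TAC under vehicle. Col5a1 and Col5a3 are shown as type V chains that moved less in that comparison, though not in every other comparison. Capitals mark every match, on either strand, to 3 short motifs of gene promoters, which were CCAAT (the CCAAT box), the GC box with the letters GGGCGG, and the TATA box with the letters TATAAA. The windows, on build GRCm38.p6, are chr6:4505368-4505617 and chr1:45311288-45311537 on the plus strand for Col1a2 and Col3a1, chr2:27886175-27886424 on the plus strand for Col5a1 and chr9:20815068-20815317 on the minus strand for Col5a3.
Col1a2: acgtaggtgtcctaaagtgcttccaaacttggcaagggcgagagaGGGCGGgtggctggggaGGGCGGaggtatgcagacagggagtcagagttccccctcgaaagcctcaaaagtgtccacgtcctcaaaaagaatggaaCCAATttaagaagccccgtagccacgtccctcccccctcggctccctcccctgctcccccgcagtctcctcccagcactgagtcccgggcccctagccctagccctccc
Col3a1: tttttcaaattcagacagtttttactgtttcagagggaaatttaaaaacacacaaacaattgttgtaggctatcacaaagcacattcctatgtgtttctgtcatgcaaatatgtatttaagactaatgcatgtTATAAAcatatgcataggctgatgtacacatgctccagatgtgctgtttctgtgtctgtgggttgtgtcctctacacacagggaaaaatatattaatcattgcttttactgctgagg
Col5a1: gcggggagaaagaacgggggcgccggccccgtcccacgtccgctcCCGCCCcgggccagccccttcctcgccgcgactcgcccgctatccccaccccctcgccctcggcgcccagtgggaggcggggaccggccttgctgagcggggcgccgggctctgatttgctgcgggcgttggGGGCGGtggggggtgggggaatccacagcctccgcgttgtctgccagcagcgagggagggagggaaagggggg
Col5a3: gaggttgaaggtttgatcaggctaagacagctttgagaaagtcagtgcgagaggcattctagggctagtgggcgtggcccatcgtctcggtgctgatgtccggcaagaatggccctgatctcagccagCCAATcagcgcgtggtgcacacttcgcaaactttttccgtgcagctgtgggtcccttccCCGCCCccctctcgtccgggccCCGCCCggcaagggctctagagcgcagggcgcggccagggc
The Col1a2 window held 1 CCAAT, 109 bases before the start, and 2 GC boxes. The Col3a1 window held none of either and 1 TATA box, 117 bases before the start. The Col5a1 window held 2 GC boxes, and the Col5a3 window held 1 CCAAT and 2 GC boxes. Over all 32851 promoter windows of that length, 33.9% held a CCAAT, 32.7% a GC box and 12.4% a TATA box, so each motif was common. The windows also differed in base composition. Bases G and C made up 35.2% of the Col3a1 window, 62.0% of that of Col1a2, 62.8% of that of Col5a3 and 76.4% of that of Col5a1, against a median of 52.4% over all windows. A motif match is a description of the letters in the window only. The RefSeq table held 5 of the 7 members, all but Col1a1 and Col5a2.

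The 2 chains of type I collagen rose with TAC and fell with THZ1 in TAC mice. Col1a1, which encodes the α1(I) chain, was at 1673, 1309, 1401 and 1768 normalized counts in Sham-Veh mice 1 to 4. In TAC-Veh it was at 2604, 5596, 1914 and 4268, with every TAC-Veh mouse above every Sham-Veh mouse. Sham-THZ1 mice were at 1735, 1885, 1615 and 1877. TAC-THZ1 mice were at 893, 866, 1199 and 973, below every mouse of the other 3 groups. On the scale of log2(normalized count + 1), on which all log2 fold changes here are given, Col1a1 rose by 1.11 ± 0.23 (SE) with TAC (n = 4 and 4 mice, limma, Benjamini-Hochberg adjusted p = 0.00108) and fell by 1.76 ± 0.23 in TAC-THZ1 against TAC-Veh (limma adjusted p = 0.000113). Its rise with TAC was close to the threshold of 1 set for a call, a 2.16-fold difference, and it was 0.86 without TAC-Veh mouse 2 (limma adjusted p = 0.00287) and 0.99 without TAC-Veh mouse 4 (limma adjusted p = 0.00357), both under the threshold, over a range of adjusted p from 9.99e-07 to 0.0134 across its 28 alternatives.

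Col1a2, which encodes the α2(I) chain, was at 3460, 2868, 2897 and 3150 normalized counts in Sham-Veh and at 6883, 13574, 5371 and 7831 in TAC-Veh. With THZ1 it was at 2748, 2312, 3312 and 2996 in TAC mice and at 3119, 3149, 2926 and 3171 in sham mice. The TAC-Veh mice stood above all others, and the remaining 3 groups overlapped. Col1a2 rose 2.57-fold with TAC (log2 fold change 1.36 ± 0.19 SE, limma adjusted p = 3.7e-05) and fell by 1.49 ± 0.19 on the log2 scale with THZ1 in TAC (limma adjusted p = 8.95e-05).

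Col3a1, the only chain of type III collagen, had the highest level of the members in all 16 libraries. It was at 6294, 4833, 5609 and 5835 normalized counts in Sham-Veh and at 16234, 31689, 10475 and 15083 in TAC-Veh. TAC-THZ1 values were 3489, 3404, 5174 and 4964, and Sham-THZ1 values were 5435, 5800, 4947 and 6282. No TAC-Veh mouse overlapped another group, and the highest TAC-THZ1 mice lay within the sham range. Col3a1 rose 3.01-fold with TAC (log2 fold change 1.59 ± 0.24 SE, limma adjusted p = 5.91e-05) and fell by 2.01 ± 0.24 on the log2 scale with THZ1 in TAC (limma adjusted p = 5.48e-05).

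**Figure D1:**
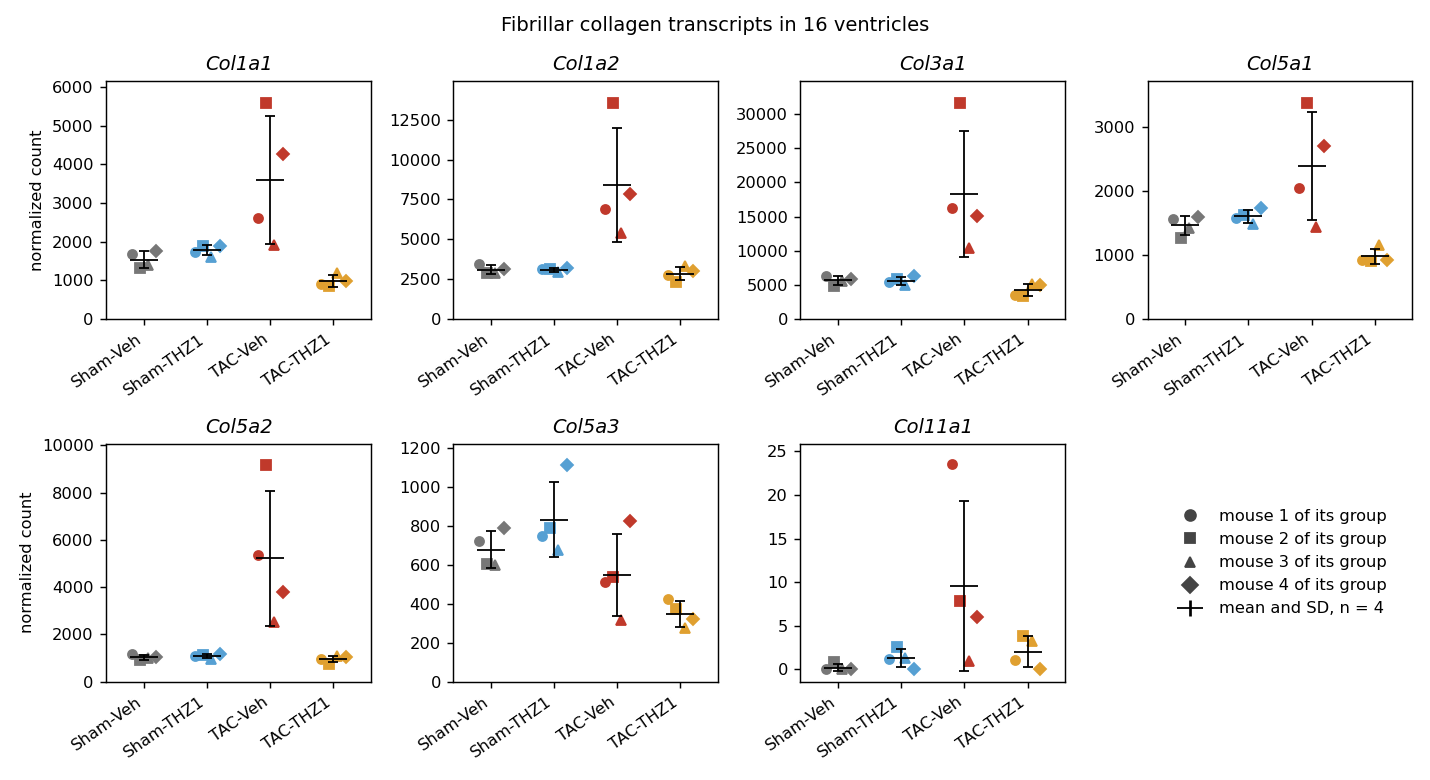
Normalized counts of the 7 fibrillar collagen genes in 16 ventricles, one panel a gene and one symbol a mouse, with bars for the mean and SD of each group (n = 4). TAC-Veh mice stand above the other groups for Col1a1, Col1a2, Col3a1 and Col5a2, whereas Col5a3 is lowest in TAC-THZ1 and Col11a1 stays under 25 normalized counts.

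The 3 type V chains did not respond alike. Col5a2, which encodes the α2(V) chain, was at 1152, 901, 1014 and 1032 normalized counts in Sham-Veh and at 5364, 9147, 2541 and 3798 in TAC-Veh. TAC-THZ1 mice were at 952, 769, 1086 and 1054, and Sham-THZ1 mice at 1072, 1128, 951 and 1185. The TAC-Veh values were far from the other groups, which overlapped one another. Its rise with TAC, 4.57-fold (log2 fold change 2.19 ± 0.26 SE, limma adjusted p = 6.64e-06), was numerically the highest of the 6 members tested, and with THZ1 in TAC it fell by 2.28 ± 0.26 on the log2 scale (limma adjusted p = 4.3e-05), again numerically the most.

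Col5a1, which encodes the α1(V) chain found in most type V trimers, was at 1568, 1271, 1417 and 1602 normalized counts in Sham-Veh and at 2046, 3381, 1437 and 2706 in TAC-Veh. TAC-Veh mouse 3 lay inside the sham range. Its log2 fold change with TAC was 0.64 ± 0.18 (SE, limma adjusted p = 0.00866), under the threshold of 1 for a call. In TAC-THZ1 it was at 929, 903, 1162 and 928, below every mouse of the other 3 groups, and in Sham-THZ1 at 1582, 1632, 1481 and 1728. With THZ1 in TAC it fell by 1.22 ± 0.18 on the log2 scale (limma adjusted p = 0.00025).

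Col5a3, which encodes the α3(V) chain, was at 722, 602, 598 and 790 normalized counts in Sham-Veh and at 511, 536, 315 and 824 in TAC-Veh. TAC-Veh mice lay on both sides of the sham range. Its log2 fold change with TAC was -0.38 (95% interval -0.85 to 0.09, limma adjusted p = 0.178), so the interval leaves out a rise of the size seen for the type I and III chains. In TAC-THZ1 it was at 425, 373, 273 and 320, and in Sham-THZ1 at 750, 786, 678 and 1110. TAC-THZ1 and TAC-Veh overlapped, and the log2 fold change between them was -0.59 (95% interval -1.06 to -0.12, limma adjusted p = 0.0572).

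Col11a1, which encodes the α1(XI) chain, was low throughout. In Sham-Veh 1 read was counted over all 4 mice, in TAC-Veh 39, in TAC-THZ1 8 and in Sham-THZ1 5. The 39 reads of TAC-Veh were 20, 11, 1 and 7 in mice 1 to 4, or 23.5, 7.87, 0.99 and 5.96 normalized counts. A library with no read allows up to 3 reads, so mouse 3 was not distinct from the sham mice at this depth. Per unit of library size TAC-Veh held 36.9 times the Sham-Veh reads, with an exact 95% interval of 6.24 to 1493 that covers counting error alone. Col11a1 did not pass the filter of at least 10 normalized counts in at least 4 libraries, so the 13331 genes tested hold 6 of the 7 members. In a fit with no filter its log2 fold change with TAC was 2.68 ± 0.63 (SE, limma adjusted p = 0.00365), and it was 2.1 without TAC-Veh mouse 1 (limma adjusted p = 0.0181), with adjusted p from 0.000586 to 0.0188 over the 16 mice left out in turn.

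Counted together, 4 of the 6 members tested were called higher with TAC (a log2 fold change of 1 or more with an adjusted p under 0.05), where 4.64% of all genes tested were. On the adjusted p alone the count was 5 of 6, against 21.4% of all genes. The median log2 fold change of the 6 was 1.24, beside -0.003 over all genes. With every TAC-Veh mouse above every Sham-Veh mouse there were 4 members, against 18.2% of all genes. With THZ1 in TAC mice 5 of the 6 were called lower at the threshold of 0.89 on the log2 scale, against 3.62% of all genes, and the median was -1.63, beside 0.015 over all genes. For 5 members every TAC-THZ1 mouse lay below every TAC-Veh mouse, against 10.5% of all genes. Both comparisons share the TAC-Veh mice, so a high TAC-Veh value raises one and lowers the other.

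**Figure D2:**
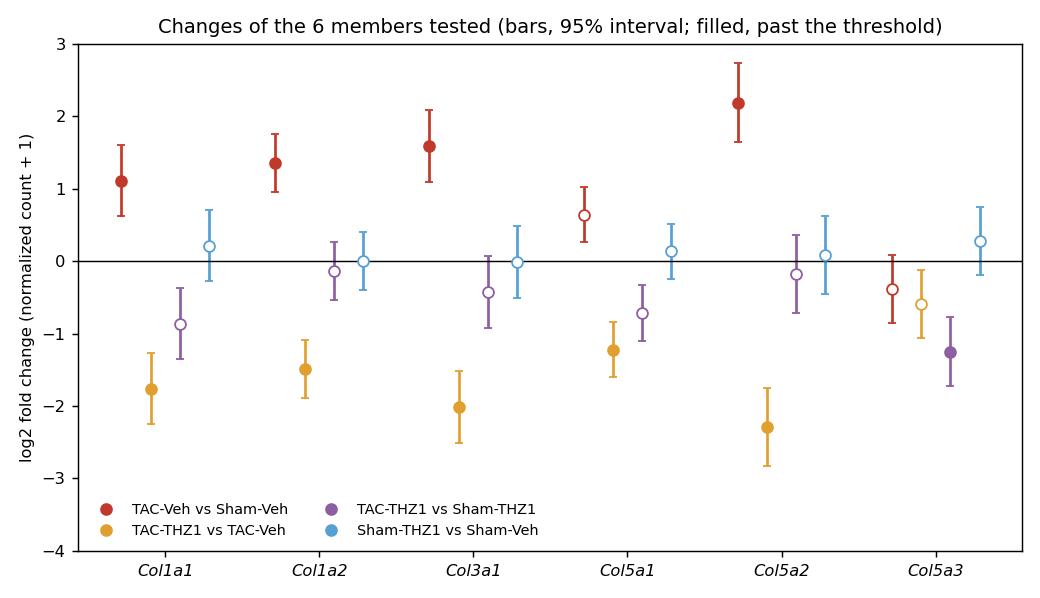
Log2 fold changes of the 6 members tested in 4 comparisons, with 95% intervals from limma and filled symbols for those past the threshold of that comparison. Col1a1, Col1a2, Col3a1 and Col5a2 are filled for TAC and, with Col5a1, for THZ1 in TAC, and Col5a3 is filled for TAC-THZ1 against Sham-THZ1 alone.

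For THZ1 in sham mice no member passed the test. None of the 6 was called by limma, none had an unadjusted p under 0.05, and DESeq2 and edgeR called none either, against 0.0225% of all genes called higher and 0.0450% called lower. The log2 fold changes ran from -0.01 for Col3a1 to 0.28 for Col5a3, whose 95% interval was -0.20 to 0.75 (limma adjusted p = 0.883). The sign for Col1a2, 0.002, and for Col3a1 turned under some scalings or with single mice left out. The interaction, the difference between the THZ1 effect seen in TAC mice and that seen in sham mice, was called lower for 5 of the 6 members, against 5.62% of all genes. It was -2.37 ± 0.36 (SE) for Col5a2 (limma adjusted p = 0.00225), -2.01 ± 0.33 for Col3a1 (limma adjusted p = 0.00305), -1.98 ± 0.33 for Col1a1 (limma adjusted p = 0.00309), -1.49 ± 0.27 for Col1a2 (limma adjusted p = 0.00468) and -1.36 ± 0.26 for Col5a1 (limma adjusted p = 0.00566). For Col5a3 it was -0.87 ± 0.32 (limma adjusted p = 0.0896), and it passed 0.05 without TAC-Veh mouse 3, at -1.10 (limma adjusted p = 0.0095), as it did with DESeq2 and with the replicate number as a block.

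Against the sham groups, TAC-THZ1 mice lay below every sham mouse for some members and overlapped them for others. Whether the members differed from each other in this was not tested. Col1a1, Col5a1 and Col5a3 were lower in every TAC-THZ1 mouse than in every Sham-THZ1 mouse and every Sham-Veh mouse, while Col1a2, Col3a1 and Col5a2 overlapped both. Without overlap below Sham-THZ1 were 17.7% of all genes, and below Sham-Veh 16.1%. Against Sham-THZ1, Col5a3 fell by 1.25 ± 0.22 (SE) on the log2 scale, to 0.42 times its level (limma adjusted p = 0.00185), and was the only one of the 6 members called lower at a threshold of 1, where 0.863% of all genes were. Col1a1 differed by -0.86 (95% interval -1.36 to -0.37, limma adjusted p = 0.0149) and Col5a1 by -0.72 (95% interval -1.10 to -0.33, limma adjusted p = 0.0107), which makes 3 of 6 on the adjusted p alone, against 12.8% of all genes. Col1a2 differed by -0.13 (95% interval -0.54 to 0.27), Col5a2 by -0.18 (95% interval -0.72 to 0.36) and Col3a1 by -0.42 (95% interval -0.92 to 0.08), none past the adjusted p in the main fit. Over its 28 alternatives the adjusted p of Col3a1 ran from 0.0365 to 0.391 against Sham-THZ1 and from 0.0400 to 0.392 against Sham-Veh.

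Set beside Sham-Veh instead, no member was called lower at a threshold of 1 (0.863% of all genes were), and 2 were on the adjusted p alone, against 11.8% of all genes. Those were Col5a3, at -0.97 (limma adjusted p = 0.00745), and Col5a1, at -0.58 (limma adjusted p = 0.031). The value of Col1a1 was -0.65 (limma adjusted p = 0.0549), with adjusted p from 0.00283 to 0.134 over its 28 alternatives. The fit holds a single spread per gene over all 4 groups. Comparisons without TAC-Veh mice, here and above, therefore carry the spread of TAC-Veh in their intervals too. Col5a3 passed the threshold of 1 when Sham-Veh mouse 2 or 3, or TAC-THZ1 mouse 1 or 2, was left out, at -1.01 to -1.07, with adjusted p from 0.000407 to 0.026 over its 28 alternatives.

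The SD over mice was higher in TAC-Veh than in any other group for all 6 members tested. For Col5a2 the SD over the 4 mice was 2866 around a mean of 5213 in TAC-Veh, against 103 around 1025 in Sham-Veh. Mouse 3 was the lowest TAC-Veh mouse for all 6 members tested, and mouse 2 was the highest for 5 of them, the exception being Col5a3, which was highest in mouse 4. The sums of 6 markers of activated fibroblasts (Postn, Cthrc1, Fap, Acta2, Cilp and Meox1) were 63822, 86704, 28826 and 33066 normalized counts in TAC-Veh mice 1 to 4, so mouse 2 was highest and mouse 3 lowest there too. Postn made up most of each sum and was lowest in mouse 4, at 20098 against 20159 in mouse 3. Fap and Acta2 were highest in mouse 1, while Cthrc1, Cilp and Meox1 followed the order of the sums. Mitochondrial reads were 33.2% in mouse 2 and 42.3% in mouse 3. Their part in the spread of the collagens was not tested. Among TAC-THZ1 mice, mouse 3 was the highest for 5 members and the lowest for Col5a3.

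Levels per length of exon place the members in order. In Sham-Veh the mean was 672 normalized counts per kb of exon for Col3a1, 255 for Col1a2, 234 for Col1a1, 172 for Col5a1, 107 for Col5a2, 99.6 for Col5a3 and 0.021 for Col11a1. Neighbours whose ranges over the 4 mice overlapped were Col1a2 with Col1a1 (236 to 285 and 199 to 269) and Col5a2 with Col5a3 (93.9 to 120 and 87.8 to 116). In TAC-Veh the mean of Col5a2 was 543 per kb, beside 548 for Col1a1 and 282 for Col5a1, with ranges that overlapped (265 to 954, 292 to 853 and 169 to 398), while Col5a3 was at 80.3. In TAC-THZ1 the means were 507 for Col3a1, 234 for Col1a2, 150 for Col1a1, 115 for Col5a1, 101 for Col5a2 and 51.1 for Col5a3 per kb. There the ranges of Col1a1 and Col5a1 (132 to 183 and 106 to 137) and of Col5a1 and Col5a2 (80.2 to 113 for the latter) overlapped. The order of some neighbours turned with the length used. With the longest transcript alone in place of the union of exons, Col5a2 was above Col1a1 in TAC-Veh (787 and 606 per kb) and above Col5a1 in TAC-THZ1 (146 and 117), though below it in Sham-Veh (155 and 174). Col1a2 then stood farther above Col1a1 in Sham-Veh, at 579 against 259 per kb.

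As shares of the summed level per kb, type III made up 43.6% ± 1.21 (SD, n = 4) in Sham-Veh and 50.1% ± 2.99 in TAC-Veh, and 43.5% ± 3.40 in TAC-THZ1. Type I made up 31.8% ± 0.87, 28.9% ± 3.21 and 33.2% ± 1.24 in the same 3 groups. Type V made up 24.6% ± 0.46, 21.0% ± 1.65 and 23.3% ± 2.39. Of the type V chains, the share of Col5a2 went from 6.94% ± 0.25 in Sham-Veh to 12.2% ± 2.20 in TAC-Veh, that of Col5a1 from 11.2% ± 0.28 to 6.73% ± 1.07, and that of Col5a3 from 6.46% ± 0.50 to 2.01% ± 0.82. The shares sum to a fixed total, so the share of Col5a1 was lower in TAC-Veh although its own level per kb was higher. Sham-THZ1 shares were 41.3% ± 0.55 for type III, 32.5% ± 1.30 for type I and 26.2% ± 0.87 for type V. These shares are a description with no test.

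**Figure D3:**
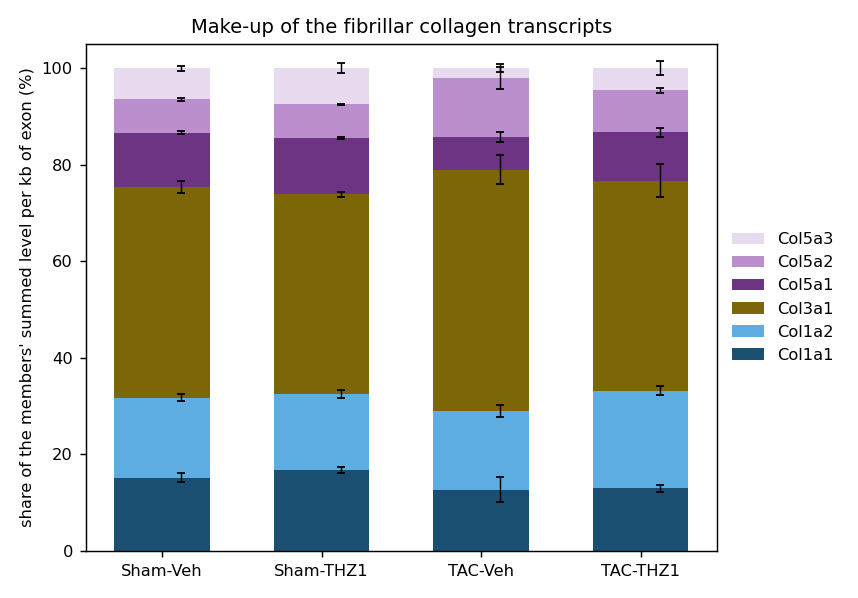
Mean share of each chain in the summed level per kb of exon of the fibrillar collagen genes, in percent, by group, with SD bars at the top of each segment (n = 4); Col11a1, under 0.03%, is not visible. The Col5a2 segment is widest in TAC-Veh, at 12.2%, where the Col5a3 segment is narrowest, at 2.01%.

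Ratios of 2 chains within a library do not depend on the scaling between libraries and ask whether the chains changed by the same fold. The log2 ratio of Col5a1 to Col5a2 counts had a mean of 0.51 ± 0.08 (SD, n = 4) in Sham-Veh mice, of -1.03 ± 0.46 in TAC-Veh mice and of 0.03 ± 0.18 in TAC-THZ1 mice. Every TAC-Veh mouse was below every mouse of the other 3 groups. The difference was -1.55 with TAC (exact two-sided permutation test, p = 0.0286, the smallest p that 4 against 4 mice can give) and 1.06 with THZ1 in TAC (exact permutation p = 0.0286). The log2 ratio of Col5a3 to Col5a1 was -1.11 ± 0.10 in Sham-Veh and -2.14 ± 0.39 in TAC-Veh, again without overlap, a difference of -1.02 (exact permutation p = 0.0286). In TAC-THZ1 it was -1.50 ± 0.42. With adjustment over the 10 ratio tests made, these 3 were at 0.0952, which does not pass 0.05. No ratio could pass unless more of the 10 reached the smallest p, so not passing does not measure the size of the differences. In each of the 3, all 4 mice of one group lay on one side of all 4 mice of the other.

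For the other pairs of chains the groups compared overlapped. The log2 ratio of Col1a1 to Col1a2 was -1.01 ± 0.13 in Sham-Veh, -1.26 ± 0.27 in TAC-Veh and -1.53 ± 0.11 in TAC-THZ1, and the exact permutation p was 0.171 for TAC and 0.114 for THZ1 in TAC. The log2 ratio of Col3a1 to Col1a1 was 1.88 ± 0.12, 2.35 ± 0.36 and 2.1 ± 0.18, with an exact permutation p of 0.114 and 0.286. For Col11a1 to Col5a1 the differences were 2.03 with TAC (exact permutation p = 0.0571) and -0.31 with THZ1 in TAC (exact permutation p = 0.771), on the few Col11a1 reads given above, and the second turned sign with a pseudocount of 5, without TAC-Veh mouse 1 and without TAC-THZ1 mouse 4.

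**Figure D4:**
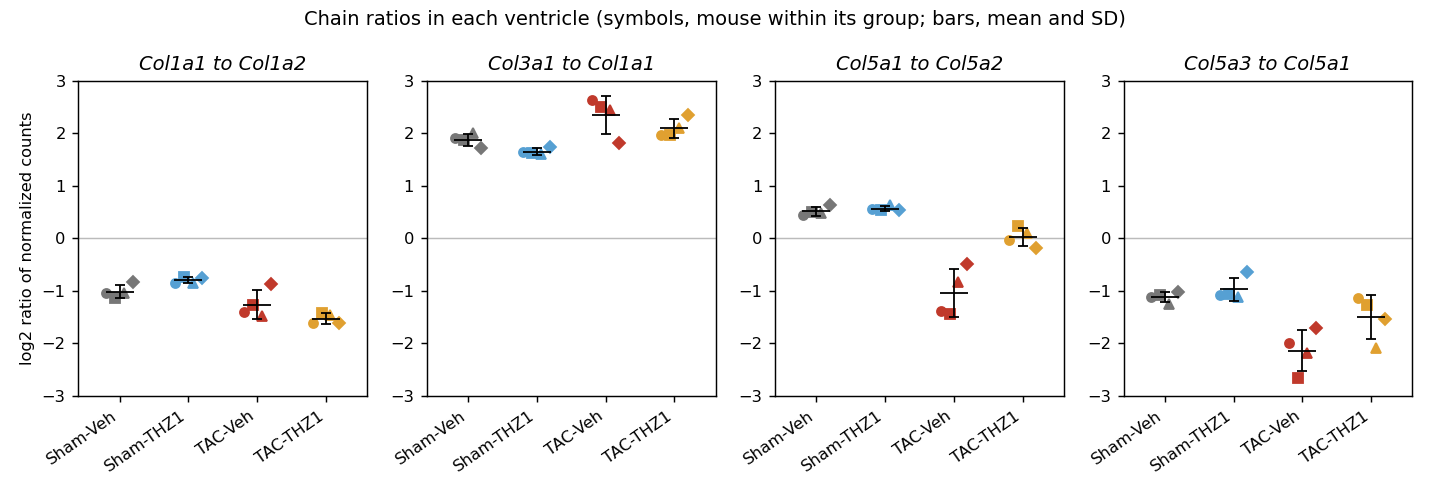
Log2 ratios of the normalized counts of 4 chain pairs in each of 16 ventricles, one symbol a mouse, with bars for the mean and SD of each group (n = 4). The Col5a1 to Col5a2 ratio lies below 0 in all 4 TAC-Veh mice and above 0 in all 8 sham mice.

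The remaining fibrillar collagen genes of the mouse were low in the ventricle. Col2a1, the chain of cartilage type II collagen, and Col24a1 were at 0 to 5.01 normalized counts and did not pass the filter. Col11a2 was at 75.3, 74.6, 84.9 and 65.5 normalized counts in Sham-Veh and 34.1, 55.8, 46.6 and 57.1 in TAC-Veh, a log2 difference of -0.65 ± 0.17 (SE, limma adjusted p = 0.00643) under the fold threshold. Col27a1 was at 172, 177, 150 and 157 in Sham-Veh and 228, 316, 198 and 214 in TAC-Veh, a log2 difference of 0.52 ± 0.16 (limma adjusted p = 0.0167), also under the threshold. With THZ1 in TAC neither was called.

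Each list of genes that act on fibrillar collagens held genes called in both comparisons. Over all genes tested, 4.64% were called higher and 3.37% lower with TAC, and 1.85% higher and 3.62% lower with THZ1 in TAC. Of 20 genes tested for hydroxylation, folding and secretion of procollagen, 4 were called higher with TAC and 15 on the adjusted p alone (21.4% of all genes), with a median log2 fold change of 0.48, and 3 were called lower with THZ1 in TAC, 17 on the adjusted p alone (14.2% of all genes), with a median of -0.43. The prolyl 3-hydroxylases Leprel1 and Leprel2 rose by log2 fold changes of 1.62 ± 0.16 (SE, limma adjusted p = 2e-06) and 1.16 ± 0.14 (limma adjusted p = 7.03e-06). P4ha1, a prolyl 4-hydroxylase subunit that lets the triple helix form at body temperature, rose by 1.01 ± 0.13 (limma adjusted p = 2.28e-05). P4ha3, named after its values were seen, was the other one called in each direction, with a mean of 1.75 normalized counts in Sham-Veh and 30.8 in TAC-Veh. It passed the filter through the TAC-Veh mice alone, at 12.9 to 62.2 against at most 8.95 in any other library, so a gene kept in this way had to differ, and its calls add nothing to the 3 higher and 2 lower calls of the rest of the list. Plod2, which hydroxylates lysines at cross-link sites, fell by 0.95 ± 0.15 with THZ1 in TAC (limma adjusted p = 0.000391), as did Leprel1 by 1.21 ± 0.16 (limma adjusted p = 0.000142). The collagen chaperone Serpinh1 was at 0.66 ± 0.16 with TAC (limma adjusted p = 0.0027), under the fold threshold.

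Among 8 procollagen proteinases and their enhancers, 3 were called higher and 1 lower with TAC (4.64% and 3.37% of all genes). Adamts2, which removes the N-propeptide, rose by 1.62 ± 0.19 (SE) on the log2 scale (limma adjusted p = 5.7e-06) and fell by 1.46 ± 0.19 with THZ1 in TAC (limma adjusted p = 8.27e-05). Pcolce, an enhancer of C-propeptide removal, rose by 1.46 ± 0.16 (limma adjusted p = 4.89e-06) and fell by 1.08 ± 0.16 with THZ1 in TAC (limma adjusted p = 0.000277), and Pcolce2 rose by 1.03 ± 0.11 (limma adjusted p = 2.14e-06). Adamts3 was at -0.80 ± 0.19 with TAC (limma adjusted p = 0.0034), under the fold threshold. The gene called lower was Tll2, named after its values were seen, at a mean of 32.1 normalized counts in Sham-Veh and 4.37 in TAC-Veh, and it was also the 1 called higher with THZ1 in TAC, beside 2 called lower (1.85% and 3.62% of all genes).

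Of 8 partners of fibril assembly, 4 were called higher with TAC (4.64% of all genes) and 4 were called lower on THZ1 in TAC mice (3.62% of all genes). Called in both were Postn, a matricellular protein of activated fibroblasts (log2 fold changes 4.65 ± 0.34 SE with TAC and -3.15 ± 0.34 with THZ1 in TAC, limma adjusted p = 1.24e-07 and 3.97e-05), the collagen-binding protein Sparc (1.43 ± 0.18 and -1.62 ± 0.18), fibronectin Fn1 (1.31 ± 0.29 and -1.66 ± 0.29) and Emilin1 (1.30 ± 0.17 and -0.93 ± 0.17). Postn was also called higher in TAC-THZ1 than in Sham-THZ1, at 1.60 ± 0.34 (limma adjusted p = 0.00449), which no member of the family was.

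Of 7 collagen receptors tested, 2 were called both in TAC, where they rose (4.64% of all genes did), and on THZ1 in TAC mice, where they fell (3.62% of all genes did). These were the integrin subunit Itga11 (1.08 ± 0.19 SE and -1.27 ± 0.19 on the log2 scale) and Mrc2, an endocytic receptor that takes up collagen fragments (1.01 ± 0.14 and -0.99 ± 0.14). Itgb1 (0.28 ± 0.08) and the collagen-sensing kinase Ddr1 (0.22 ± 0.07) stayed under the fold threshold with TAC. Of 9 genes of collagen degradation and its inhibition, 3 were called higher and 1 lower with TAC (4.64% and 3.37% of all genes), and THZ1 in TAC mice brought 4 calls, all lower (3.62% of all genes). The inhibitor Timp1 was at 4.11 ± 0.47 with TAC and -2.19 ± 0.47 with THZ1 in TAC (limma adjusted p = 5.69e-06 and 0.00291), the lysosomal protease Ctsk at 1.71 ± 0.21 and -1.46 ± 0.21, and the gelatinase Mmp2 at 1.36 ± 0.14 and -1.32 ± 0.14. Mmp14 was at 0.74 ± 0.19 with TAC, under the threshold, and fell by 0.93 ± 0.19 with THZ1 in TAC. The gene called lower with TAC was the collagenase Mmp13, named after its values were seen, at means of 41.2 normalized counts in Sham-Veh and 18.0 in TAC-Veh. Mmp8, also on the degradation list and named after its values were seen, did not pass the filter and was not tested. It was at 358, 12.7, 86.3 and 1.98 normalized counts in TAC-THZ1 mice 1 to 4, and at most 9.41 in any other library.

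**Figure D5:**
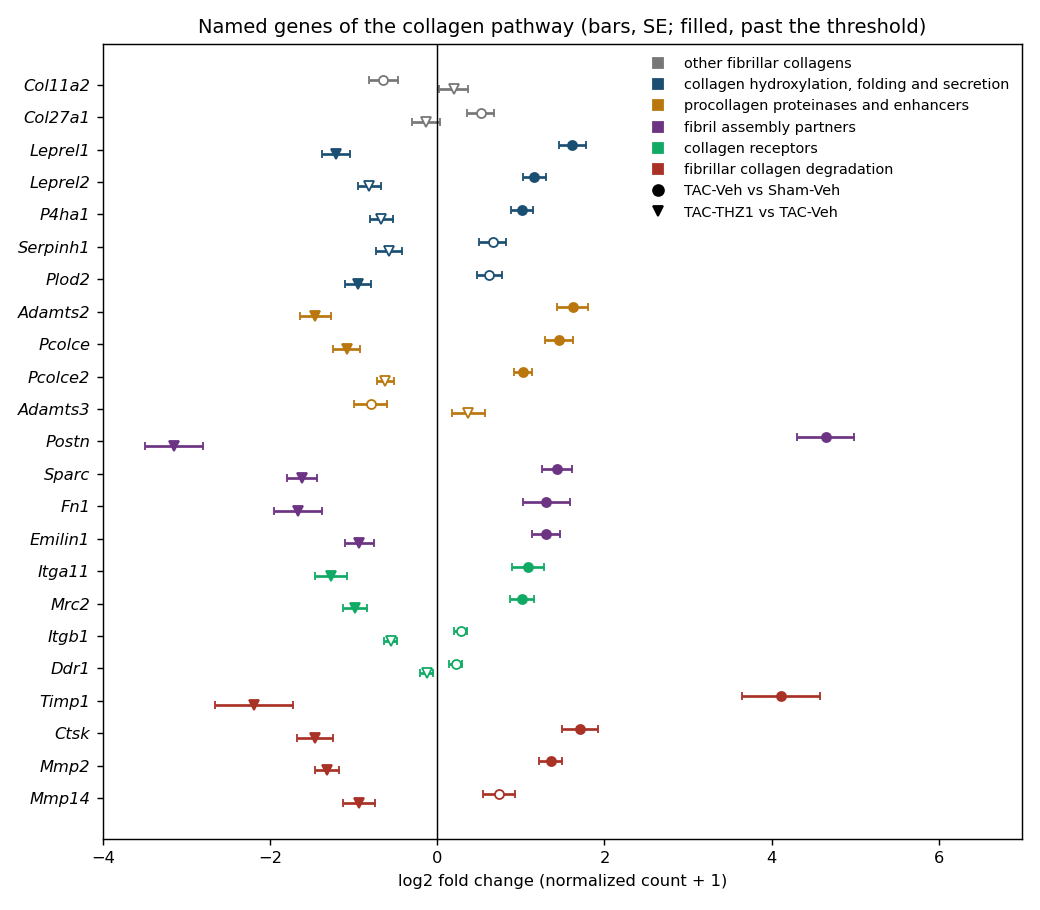
Log2 fold changes with SE of the named genes that act on fibrillar collagens, coloured by list, with circles for TAC-Veh against Sham-Veh, triangles for TAC-THZ1 against TAC-Veh and filled symbols for calls. Of the genes plotted, Postn and Timp1 lie farthest from 0 in both comparisons, at 4.65 and 4.11 with TAC.

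The genes whose standardized profile over the 16 libraries was nearest to the mean profile of the members, out of 11387 compared, were Col6a1 (root mean square difference 0.181, Pearson r = 0.984), Col6a2 (0.209), Fbn1 (0.217), Fn1 (0.256) and Myo1d (0.258). Col6a1 and Col6a2 encode chains of the microfibrillar type VI collagen and Fbn1 encodes fibrillin. The genes nearest to Col5a3 were different ones, Coro2b (0.262), Plekhg3 (0.285), Ehd2 (0.305), Cdh5 (0.314) and Rnf144a (0.337), of which Cdh5 encodes the cadherin of endothelial junctions. Cdh5 is among 6 endothelial markers examined, which did not move one way with TAC. From Sham-Veh to TAC-Veh the means of Cdh5 (5595 to 4553), Kdr and Tie1 were lower. Those of Pecam1 (4062 to 4842), Egfl7 and Fabp4 were higher. Nearest to Col11a1 were Plvap (0.459), Stc1 (0.493), Zfp697 (0.501), Kcne4 (0.508) and Maff (0.510), on a profile of few reads. These are descriptions over libraries that share the 4 groups.

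Markers of cell types moved with the groups as well. The summed level of 8 fibroblast markers, all passing the filter, ranged over 50053 to 56688 normalized counts in Sham-Veh mice, 53682 to 57189 in Sham-THZ1 mice, 75145 to 85143 in TAC-Veh mice and 55557 to 80124 in TAC-THZ1 mice. The list did not move one way. Dcn, whose mean was 14328 in Sham-Veh and 30278 in TAC-Veh, Lum and Mfap5 were called higher with TAC, whereas Scara5 was called lower (log2 fold change -1.70, limma adjusted p = 4.37e-05) and was called higher with THZ1 in TAC (1.25, limma adjusted p = 0.00162). Pdgfra, Tcf21 and Gsn passed the adjusted p in neither comparison. The sum of the 6 activated fibroblast markers was 3506 to 4710, 3766 to 4634, 28826 to 86704 and 4349 to 10662 in the same order of groups. Of the 6, 4 were called higher with TAC (4.64% of all genes) and 4 lower with THZ1 in TAC (3.62%). From Sham-Veh to TAC-Veh the mean went from 1348 to 38153 for Postn and from 444 to 10953 for Cilp. It went from 141 to 184 for Fap and from 1746 to 1661 for Acta2. Cthrc1 passed the filter only through the TAC-Veh mice. A gene kept in this way had to differ, so its calls add nothing to those of Postn, Cilp and Meox1, the others called. Postn is in this list and in that of assembly partners, Fap in this list and in that of degradation, Acta2 in this list and in that of smooth muscle, and Dpt in the fibroblast list and in that of assembly partners. Cardiomyocyte markers summed to 1120580 to 1216110 in Sham-Veh, 586236 to 846001 in TAC-Veh and 922745 to 1132070 in TAC-THZ1, whereas atrial markers summed to at most 82.3 in any library. Of the 6 cardiomyocyte markers, 1 was called lower with TAC (3.37% of all genes). The mean of Myh6 went from 501105 in Sham-Veh to 225634 in TAC-Veh. Tnnt2, Tnni3, Ryr2 and Pln had lower means too, whereas Actc1 was at 209073 and 208600. In TAC-THZ1 the means of Actc1 (257707) and Tnnt2 (204207) were above those of Sham-Veh, and the rest below. Cartilage and tendon markers summed to 172 to 214 in Sham-Veh mice, 1613 to 5145 in TAC-Veh mice and 314 to 628 in TAC-THZ1 mice, with Col9a1 at 0 in every library. Of the 10, 4 passed the filter and were called higher with TAC (4.64% of all genes). Tnmd, among them, was kept through the TAC-Veh mice alone, so its call adds nothing to those of Comp, Scx and Sox9. From Sham-Veh to TAC-Veh the mean went from 54.5 to 2831 for Comp, 73.9 to 291 for Scx and 68.1 to 182 for Sox9. Acan, with a mean of 8.88 in TAC-Veh, Col2a1, Matn1, Matn3 and Chad did not pass the filter. Neutrophil markers reached 206 to 7039 in TAC-THZ1, against 49.9 to 97.3 in Sham-Veh, 80.0 to 537 in Sham-THZ1 and 121 to 276 in TAC-Veh. Erythroid markers reached 5889 to 25881 in TAC-THZ1, against 5281 to 5748, 4651 to 8338 and 6435 to 11428 in the same order.

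Of the remaining lists, the summed macrophage markers were higher, and the summed Schwann cell markers lower, in every TAC-Veh mouse than in every Sham-Veh mouse. With TAC 0 of the 6 macrophage markers were called higher (4.64% of all genes were). On the adjusted p alone 3 were higher (21.4% of all genes). Cd163 had a lower mean in TAC-Veh, 600 normalized counts against 695 in Sham-Veh. Of 3 Schwann cell markers tested, 2 were called lower (3.37% of all genes). Sums in Sham-Veh and TAC-Veh were 4890 to 5708 and 6462 to 7717 normalized counts for macrophage markers, 34534 to 38133 and 33950 to 52113 for endothelial markers, 22718 to 25583 and 18286 to 25075 for smooth muscle and pericyte markers, 54.0 to 73.2 and 68.2 to 116 for lymphocyte markers. They were 134 to 210 and 145 to 299 for epicardial and mesothelial markers, 256 to 318 and 76.4 to 145 for Schwann cell markers, and 4.42 to 29.9 and 1.43 to 23.9 for adipocyte markers. The part of any cell type in the changes of the collagens was not tested.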

How the data were processed

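RNA from 1 ventricle piece per mouse was sequenced after stranded mRNA library preparation. The authors aligned reads to mm9 with TopHat2 2.1.1 (the version per the submitters' processing notes), counted reads per GENCODE gene by strand with HTSeq and divided each library's counts by its DESeq2 size factor. The deposited signal is this normalized count for 22372 genes, all matched to a GENCODE annotation on NCBIM37. Dividing by the step of 1 read recovered whole reads for 100% of values (tolerance 0.02), from 21.4 to 35.8 M per library. Intervals on reads cover counting error only.

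The main test was limma 3.58.1 (R 4.3.3) with a trend in eBayes and a mean for each of the 4 groups, fitted to log2(normalized count + 1) of all 16 libraries, with a filter of at least 10 normalized counts in at least 4 libraries (13331 genes), and Benjamini-Hochberg adjustment over these genes in each of 6 contrasts. Calls needed an adjusted p under 0.05 and, as in the study's methods, a log2 fold change of 1 for TAC or 0.89 for THZ1 in TAC. The contrast in sham mice and the interaction had no fold threshold. Chain ratios used exact two-sided permutation tests over mice. Levels between genes were divided by union exon length. Scripts were tested on simulated data.

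The members and the lists of pathway and marker genes were chosen with earlier results of these data known. All members were named, with up to 4 genes per pathway list for TAC and up to 2 for THZ1 in TAC by absolute log2 fold change (adjusted p under 0.05, mean over all libraries of 50 normalized counts or more), and the 5 genes of nearest profile. Mia3 of the secretion list matched no single gene. Promoter motifs were chosen after the sequences were seen. Replicates were separate mice, and the labels gave no batch. Alternatives covered the pseudocount, filter, scaling, edgeR 4.0.16 and DESeq2 1.42.0 on the recovered reads, the replicate number as a block, array weights, robust eBayes, groups fitted alone, thresholds and each library left out. Leaving out libraries in the fit of Col11a1 with no filter was added after the data were seen.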

Additional observations from a re-analysis of the deposited data

Results flagged for a closer look

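Of 48 sets of 4 values examined for a mouse far from the rest of its group, 4 held one by Dixon's criterion, and chance alone gives about 1 in 20. Col5a1 in TAC-THZ1 mouse 3 was at 1162 normalized counts, above 903 to 929 in the others of that group. Col11a1 in Sham-Veh mouse 2 was at 0.802 normalized counts, which is 1 read against none in the rest, and its log2 ratio to Col5a1 there was -9.46 for the same read. The log2 ratio of Col5a3 to Col5a1 in Sham-THZ1 mouse 4 was -0.64, above the other 3, with Col5a3 at 1110 normalized counts in that mouse.

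By the interaction term, THZ1 had a different effect in TAC mice than in sham mice for Col1a1 (-1.98), Col1a2 (-1.49), Col3a1 (-2.01), Col5a1 (-1.36) and Col5a2 (-2.37), on the log2 scale. In TAC mice the 5 were lower with THZ1 and in sham mice they differed by at most 0.22.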

How the results depend on the processing

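Calls for TAC and for THZ1 in TAC numbered at least 3 and 5 members under each alternative run. Leaving out each mouse gave 3 to 4 members called higher with TAC, 5 lower with THZ1 in TAC, 5 to 6 lower for the interaction, 1 lower in TAC-THZ1 against Sham-THZ1 and 0 to 1 against Sham-Veh. On the adjusted p alone the last 2 counts were 3 and 2, by construction of the looser threshold. The log2 difference of Col1a2 between Sham-THZ1 and Sham-Veh was -0.0110 with upper quartile scaling, -0.000953 with quantile normalization, -0.00575 with edgeR and -0.00107 with DESeq2, and -0.0328 to 0.0574 with each mouse left out. That of Col3a1 was 0.0174 with array weights and -0.0781 to 0.0534 with each mouse left out, and that of Col5a2 in TAC-THZ1 against Sham-Veh was -0.154 to 0.0119. The cause was not tested.

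No strong pairing of mice by the replicate numbers of the labels was seen. Deviations from the group means of same-numbered mice correlated at -0.43 to 0.16, which cannot show that no pairing existed. With the replicate number as a block the interaction of Col5a3 was -0.87 with an adjusted p of 0.0345 (limma), and with DESeq2 it was -0.95 (adjusted p = 0.0282), over a range of 0.0095 to 0.174 across its alternatives. The block changed no other call. The ratio of Col11a1 to Col5a1 with THZ1 in TAC was 0.36 with a pseudocount of 5 and -0.72 to 0.32 with each mouse left out. With no filter, Col11a1 was at -1.53 with THZ1 in TAC (limma adjusted p = 0.0993), and at -2.17 without TAC-Veh mouse 3 (limma adjusted p = 0.0137) and -0.96 without mouse 1 (limma adjusted p = 0.3).

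Shares per kb depended on the length used. With the longest transcript, type I made up 36.6% in Sham-Veh, 33.3% in TAC-Veh, 37.0% in Sham-THZ1 and 39.2% in TAC-THZ1, type V 19.2%, 17.5%, 20.6% and 18.1% in that order, and type III 42.4% in Sham-THZ1. Depth limited Col11a1 alone among the members.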
